A study of Homo sapiens with 12 samples.

Results

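Glycolysis and hypoxia response genes were followed in side population (SP) and main population (MP) cells of 4 lymphoma cell lines. The set was a list of 37 gene symbols, looked up in the annotation of the array platform by symbol. The rule uses no measured value, though the list was drawn up with earlier results of these data known. A probe set of its own measured 33 of the 37, among 18417 measured genes in all. PGAM1, a phosphoglycerate mutase, was named only on 5 probe sets shared with its near copy PGAM4, and SLC16A1, SLC16A3 and CA9 were not matched to a probe set in the annotation used here. These 4 genes are therefore given no value.

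The lines SUDHL-1, DEL, Karpas299 and SUPM2 come from anaplastic large cell lymphoma, a T-cell lymphoma, and are established lines with the NPM1-ALK fusion. They were grown in RPMI 1640 medium with fetal calf serum to the logarithmic phase and stained with the DNA dye Hoechst 33342, and no group was labelled as hypoxic or as drug treated. SP cells pump the dye out and stay dim, MP cells keep it, and both populations were sorted by flow cytometry. In sorted pools, a change in the share of cells that express a gene and a change per cell cannot be told apart. The 12 arrays comprise 3 SP and 3 MP arrays from SUDHL-1, with a single SP and a single MP array for DEL, for Karpas299 and for SUPM2. Sorting in triplicate is stated, and separate cultures are not, so p-values measure no more than the spread of these samples, and that spread may be technical. Each line stands for itself as a single culture model, and the other lines have no replicate of a population.

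Glycolysis splits glucose into pyruvate in the cytosol and needs carriers that let glucose in. Lactate dehydrogenase turns the pyruvate into lactate, and many steps are run by alternative enzymes from different genes. Hypoxia-inducible factor 1 (HIF1) is a transcription factor whose alpha subunit, encoded by HIF1A, is marked for destruction by oxygen-dependent prolyl hydroxylases. When oxygen is low it persists and raises the transcription of glucose carriers, glycolytic enzymes, VEGFA and other targets, and in many tumour cells some of these genes are also driven by growth signals.

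The values are log2 signals per probe set, so a difference of 1 is a 2-fold difference, and the levels of different genes have no common scale. Over all probe sets, array medians ran from 4.83 to 5.0 for SUDHL-1 and from 5.24 to 5.35 for DEL, Karpas299 and SUPM2. Arrays have no read depth, and their number limits the precision. TNFRSF8 (CD30), the surface receptor that marks this lymphoma, lay between 6.80 and 10.51. It was above the lowest 25% of signals on 12 of 12 arrays, as were NPM1, GZMB, PRF1, IL2RA, MUC1 and BATF3. Of the same list, CD4 was above it on 10 arrays and CD2 on 5. Of 9 T-cell markers, CD3D, CD5, CD7, LCK and ZAP70 were above the lowest 25% on 12 of 12 arrays, with highest signals of 10.51, 9.34, 7.63, 5.38 and 8.02. CD3E was above it on 3 arrays and CD3G, CD28 and TRAT1 on 0, and ALK had no probe set of its own in the annotation used. Among genes of other cell types, the macrophage receptor gene CSF1R and the keratin gene KRT18 were above it on 12 arrays, with signals up to 8.59 and 7.78. The B-cell genes CD79A, CD79B, PAX5 and BLK were above it on 12 arrays, up to 5.79, 5.34, 6.78 and 6.10, and MS4A1 on 0. S100A8 and PECAM1 were above it on 4 arrays, up to 8.68 and 6.86. CD14 was above it on 11 arrays, COL1A1 on 12 and HBB on 9, with signals of at most 6.31, 6.07 and 4.8, and LYZ, MPO, EPCAM and PF4 were above it on 0. Of the same lists, COL1A2, COL3A1 and ALAS2 were above it on 12 arrays, ITGAM on 11, PPBP on 10, KRT8 on 7 and VWF on 1.

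Of the 33 members, 32 lay above the lowest 25% of signals on all 12 arrays. The exception was P4HA2, which was in the lowest 25% on the 6 SUDHL-1 arrays and above it on the other 6. GAPDH, TPI1, PGK1, ENO1, LDHA and ALDOA have processed pseudogenes or close relatives, and their signals are uncertain where the copies are alike. The plot of all members by array gives every value.

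**Figure D1:**
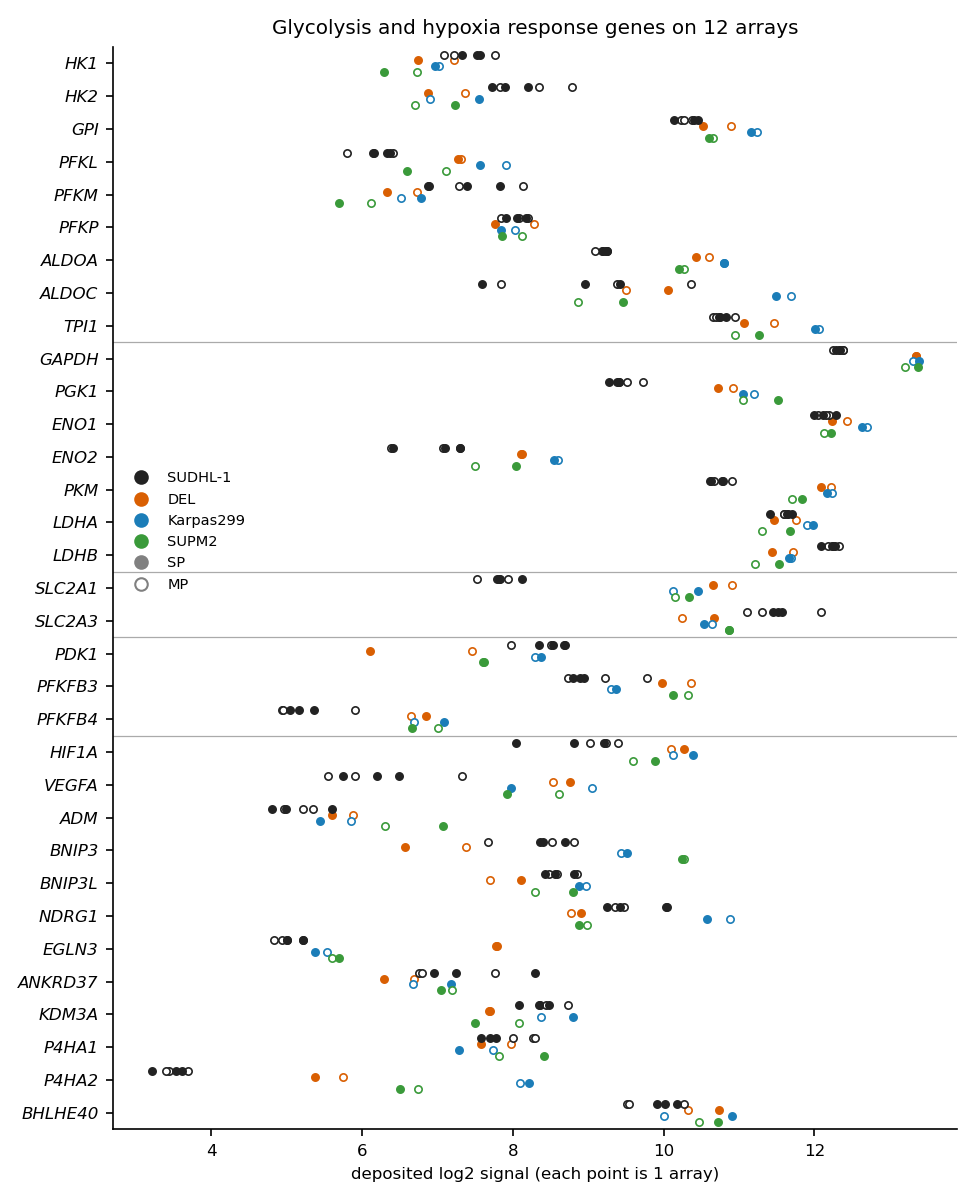
Deposited log2 signal (x axis) of each of the 33 measured members (rows, grouped by role) on the 12 arrays, coloured by line, with filled points for SP and open points for MP. SLC2A1, PGK1 and P4HA2 of SUDHL-1 lie to the left of every point of the other lines, while the points of PFKP stay between 7.77 and 8.28 in all lines.

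The first comparison asked which members differed between DEL, Karpas299 and SUPM2. In all, 5 members changed, by 1.88 to 3.28 log2 units between the highest and the lowest line. They were the hypoxia targets EGLN3, P4HA2, BNIP3 and NDRG1 and the aldolase ALDOC. The remaining 28 members did not pass the test. In limma's moderated F test, fitted over 6 arrays with population as a term, 5 of 33 members passed an adjusted p of 0.05, against 7.5% of all genes. The SP and the MP array stood in as replicates of a line. The error in this test is therefore how far the SP minus MP difference varies between lines. Each adjusted p given for these lines belongs to the F test over all of them, and not to the difference of the pair beside it. The median difference between the highest and the lowest line was 0.57 over members and 0.42 over all genes.

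EGLN3 encodes one of the prolyl hydroxylases that mark HIF1 alpha, and is itself a HIF target. Its signal was 7.79 on the SP and 7.78 on the MP array of DEL, 5.38 and 5.53 in Karpas299 and 5.70 and 5.61 in SUPM2. DEL was alone at the top, 2.33 above Karpas299 or 5.03-fold (limma adjusted p = 0.00732). On the 6 SUDHL-1 arrays the lowest, median and highest signals were 4.83, 5.0 and 5.22.

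P4HA2 encodes the catalytic subunit of a prolyl hydroxylase that modifies collagen. The Karpas299 arrays gave 8.22 (SP) and 8.09 (MP), those of SUPM2 6.5 and 6.74, and those of DEL 5.38 and 5.75. The 3 lines did not overlap, and Karpas299 lay 2.59 above DEL, a 6.04-fold difference (limma adjusted p = 0.00974). Its relative P4HA1, which does the same reaction, was not called between these lines, with a difference of 0.60 and a limma adjusted p of 0.486.

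BNIP3, a mitochondrial protein of the BCL2 family that directs mitochondria to autophagy, was highest in SUPM2. Its signal there was 10.24 in SP and 10.27 in MP cells, against 9.51 and 9.43 in Karpas299 and 6.57 and 7.38 in DEL. SUPM2 exceeded DEL by 3.28, a 9.70-fold difference (limma adjusted p = 0.00975), and no line overlapped another. The related BNIP3L was not called, with a difference of 1.03 between Karpas299 and DEL (limma adjusted p = 0.0961).

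NDRG1, a stress-induced gene widely used as a hypoxia marker, and ALDOC, the aldolase known from brain, were both highest in Karpas299. The signals of NDRG1 were 10.57 (SP) and 10.88 (MP) for Karpas299, 8.90 and 8.78 for DEL, and 8.88 and 8.98 for SUPM2. The difference of Karpas299 from DEL was 1.88 (limma adjusted p = 0.0134), while DEL and SUPM2 overlapped. ALDOC stood at 11.49 and 11.68 in Karpas299, 10.05 and 9.50 in DEL, and 9.46 and 8.86 in SUPM2, and its difference between Karpas299 and SUPM2 was 2.43 (limma adjusted p = 0.0166).

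The fit was repeated with 1 of the 6 arrays left out, which leaves a line with 1 array. Calls over all genes fell in every such fit, so a lost call is not particular to the member. EGLN3 and BNIP3 were called with any 1 of the 6 arrays left out. Without the SP or without the MP array of Karpas299, ALDOC, NDRG1 and P4HA2 lost their calls. The differences were then 2.81 and 2.04 for ALDOC, 2.04 and 1.73 for NDRG1, and 2.38 and 2.81 for P4HA2. Without the MP array of SUPM2, ADM passed as well (1.59, limma adjusted p = 0.0479).

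**Figure D2:**
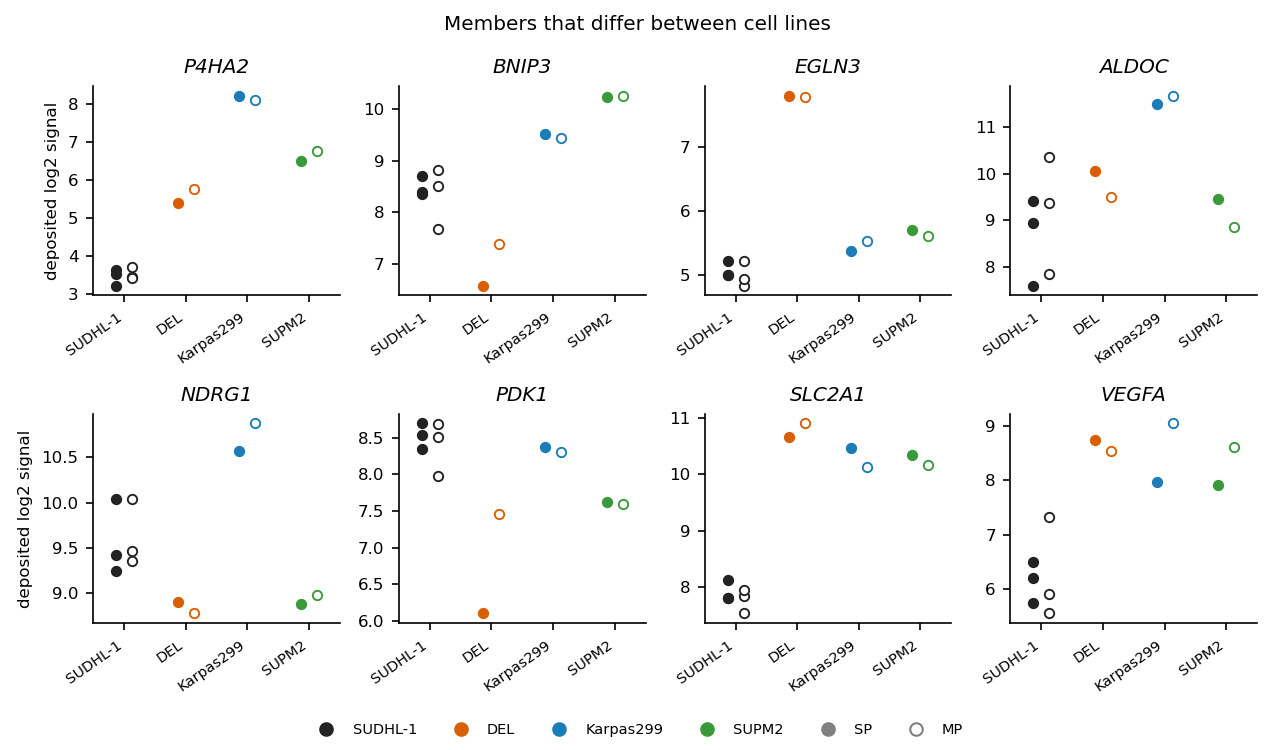
Deposited log2 signal (y axis) of 8 members in the 4 lines (x axis), with filled points for SP and open points for MP arrays and a separate y range in each panel. EGLN3 is high in DEL alone, BNIP3 is lowest in DEL and highest in SUPM2, NDRG1 and ALDOC peak in Karpas299, and the DEL SP array stands low for PDK1.

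The called genes were inspected for the core letters of the HIF binding element in the 250 bases before a transcript start listed by RefSeq (build GRCh38.p14). The letters searched were ACGTG and GCGTG on both strands, and CACGTG, a palindrome, counts once on each strand because its matches overlap. The 4 called members with a listed promoter are shown because they differ between lines and also in this sequence feature. Capitals mark each match, and each sequence runs 5′ to 3′ on the strand of the gene, with ALDOC at chr17:28576896-28577145, BNIP3 at chr10:131981924-131982173, EGLN3 at chr14:33951075-33951324 and P4HA2 at chr5:132227092-132227341, all on the minus strand. For P4HA2 the listed start lies inside the outermost extent of the gene, so its window is not the region before the outermost start.
ALDOC: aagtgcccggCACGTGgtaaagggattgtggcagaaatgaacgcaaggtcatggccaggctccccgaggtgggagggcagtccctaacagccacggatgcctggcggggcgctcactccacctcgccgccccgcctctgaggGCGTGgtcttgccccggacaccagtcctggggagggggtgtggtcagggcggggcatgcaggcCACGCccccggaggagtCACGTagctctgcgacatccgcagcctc
BNIP3: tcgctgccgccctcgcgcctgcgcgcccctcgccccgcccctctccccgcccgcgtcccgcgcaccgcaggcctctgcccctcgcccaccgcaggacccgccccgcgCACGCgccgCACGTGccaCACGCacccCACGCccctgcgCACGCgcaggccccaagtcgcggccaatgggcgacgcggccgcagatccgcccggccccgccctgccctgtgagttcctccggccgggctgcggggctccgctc
EGLN3: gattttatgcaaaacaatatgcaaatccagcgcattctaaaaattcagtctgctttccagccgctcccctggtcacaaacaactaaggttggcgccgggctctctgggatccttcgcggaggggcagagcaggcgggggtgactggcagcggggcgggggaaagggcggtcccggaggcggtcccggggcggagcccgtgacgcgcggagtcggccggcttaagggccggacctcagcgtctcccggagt
P4HA2: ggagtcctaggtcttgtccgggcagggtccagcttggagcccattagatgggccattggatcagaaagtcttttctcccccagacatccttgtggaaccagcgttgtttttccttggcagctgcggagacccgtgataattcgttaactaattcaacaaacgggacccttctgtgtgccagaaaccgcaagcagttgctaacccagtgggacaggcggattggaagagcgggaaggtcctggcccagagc
The ALDOC window held 5 matches, with CACGTG at its far end and the nearest match ending 24 bases before the start. The BNIP3 window held 6 matches between 143 and 100 bases before the start, again with a CACGTG. The listed windows of EGLN3 and P4HA2 held 0, which says nothing of other starts of these genes. Over all listed promoter windows of this length, 43.2% of 35116 held at least 1 match and 6.34% held CACGTG. Among measured members, 31 of 53 windows (58.5%) held a match and 9 (17.0%) held CACGTG. By gene, 24 of the 29 measured members with a window (82.8%) had a match in at least 1 of their windows, against 47.4% of 27305 genes. The share by gene rises with the number of windows, and HK1 and PFKM each had 7 windows with a match in 1. The list was drawn up as hypoxia response and glycolysis genes, so these shares are described and are not a test.

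Among the members that were not called between these 3 lines, some stood close together. GAPDH, which makes the first energy-rich intermediate of the lower pathway, stood between 13.20 and 13.38 on all 6 arrays. PFKP, the platelet type of phosphofructokinase, stood between 7.77 and 8.28. Of the 7 measured genes of lower glycolysis and lactate formation 0 were called, of the 9 of upper glycolysis 1 (ALDOC), of the 3 regulators 0, of the 2 glucose carriers 0 and of the 12 hypoxia genes 4, beside 7.5% of all genes called.

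The other members of upper glycolysis mostly had Karpas299 as the highest and SUPM2 as the lowest of the 3 lines. This order held for HK1 and HK2, the hexokinases that trap glucose, with differences of 0.48 and 0.26, and for GPI, which converts its product, with 0.57. It also held for PFKL, the liver phosphofructokinase, with 0.88, PFKM, the muscle type, with 0.75, ALDOA, the common aldolase, with 0.56, and TPI1, which interconverts the products of aldolase, with 0.93. None of these passed the adjusted threshold, with limma adjusted p between 0.112 for PFKL and 0.856 for HK2. Neighbouring lines overlapped for HK1, HK2, GPI, PFKM and TPI1. For TPI1 the order held only on the brighter of its 2 probe sets, the one used. The other gave 10.90 and 10.69 in SP and MP cells of Karpas299, and 10.36 and 10.07 in SUPM2. In DEL it gave 9.94 and 10.34, the lowest mean of these lines. The order was not particular to upper glycolysis, since ENO1, ENO2, PKM, LDHA, LDHB and HIF1A had it too.

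PDK1, the kinase that shuts pyruvate out of the mitochondrion by blocking pyruvate dehydrogenase, varied most among the uncalled members. Its signal was 8.38 and 8.30 in SP and MP cells of Karpas299, 7.62 and 7.60 in SUPM2, and 6.10 and 7.46 in DEL. The difference of Karpas299 from DEL was 1.56 (limma adjusted p = 0.14), and the SP array of DEL lay below the other 11 arrays of the series. PFKFB3, which makes the sugar phosphate that speeds up phosphofructokinase, was lowest in Karpas299, by 0.89 against SUPM2 (limma adjusted p = 0.0837). ADM, the secreted peptide adrenomedullin, was 1.04 higher in SUPM2 than in Karpas299 (limma adjusted p = 0.182), and KDM3A, a histone demethylase, 0.89 higher in Karpas299 than in DEL (limma adjusted p = 0.184).

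The second comparison set SUDHL-1 against the mean of the other 3 lines. SUDHL-1 had less signal of the glucose carrier SLC2A1, of the enzymes ALDOA, GAPDH, PGK1 and PKM, of HIF1A and of VEGFA, and more of the hexokinases HK1 and HK2, the muscle phosphofructokinase PFKM, LDHB, the carrier SLC2A3 and PDK1. This holds 1 line against 3, and the column medians of SUDHL-1 lay lower, so line, culture and array handling cannot be told apart. The values were therefore quantile normalized again over the 12 columns for this test. Its p-values cover the spread between arrays within lines, and not the spread between lines. In limma, 26 of 33 members passed, against 51.0% of all genes, and 28 had an unadjusted p under 0.05, against 57.1% of all genes. Of these, 7 were higher in SUDHL-1 (26.0% of all genes) and 19 lower (25% of all genes).

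The median difference over members was -0.76, beside 0.01 over all genes. The split depends on the scaling. On the deposited values, 7 of 26 called members were higher, beside 3014 of 12073 called genes, with a median of -0.62 over members and -0.33 over all genes. With each array centred on its median, 13 of 25 called members were higher, beside 6381 of 9986 called genes, with medians of -0.16 and 0.13. Under all 3 scalings, 12 members were called lower (19.5% of all genes) and 6 were called higher (15.5% of all genes). The 12 were PFKL, ALDOA, GAPDH, PGK1, ENO2, PKM, SLC2A1, PFKFB4, HIF1A, VEGFA, EGLN3 and P4HA2, and the 6 were HK1, HK2, PFKM, LDHB, SLC2A3 and PDK1. On deposited values, the SUDHL-1 arrays lay wholly below those of the other lines for 14 members (29.1% of all genes) and wholly above for 4 (7.51%). After quantile normalization these were 12 and 4 members (12.7% and 12.7% of all genes).

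SLC2A1 (GLUT1), the widespread glucose carrier, was lower in SUDHL-1. On the 6 SUDHL-1 arrays its lowest, median and highest deposited signals were 7.53, 7.82 and 8.12. It stood at 10.66 and 10.90 in SP and MP cells of DEL, 10.46 and 10.12 in Karpas299, and 10.34 and 10.16 in SUPM2. The groups did not overlap, and the fitted difference was -2.68 ± 0.11 (SE), 6.42-fold (limma adjusted p = 5.33e-08).

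SLC2A3 (GLUT3), the high-affinity carrier of neurons and lymphocytes, ran the other way. Its lowest, median and highest signals were 11.11, 11.49 and 12.09 in SUDHL-1 and 10.24, 10.65 and 10.87 on the 6 arrays of the other lines. The deposited values did not overlap, but the quantile normalized values did. On the latter the fitted difference was 0.71 ± 0.20 (SE, limma adjusted p = 0.0114).

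Within lower glycolysis, PGK1, which makes the first ATP of the pathway, lay between 9.28 and 9.72 in SUDHL-1 with a median of 9.41. In the other lines it stood at 10.72 and 10.92 in DEL, 11.05 and 11.20 in Karpas299, and 11.51 and 11.06 in SUPM2. The difference was -1.81 ± 0.11 (SE, limma adjusted p = 6.39e-07). PKM, the pyruvate kinase that makes the last ATP, differed by -1.45, with 10.62, 10.72 and 10.91 as the lowest, median and highest signals in SUDHL-1 and 11.70, 12.12 and 12.23 in the other lines. The probe set sums the splice forms of PKM, which were not resolved here.

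GAPDH, often taken as a constant reference, had 12.25, 12.33 and 12.38 as lowest, median and highest signals in SUDHL-1 and 13.20, 13.35 and 13.38 in the other lines. Its fitted difference was -0.94 ± 0.09 (SE, limma adjusted p = 8.33e-06), and was -0.54 with centred arrays. ENO2, the neuronal enolase, differed by -1.09 and ALDOA by -1.54, while ENO1, the common enolase, differed by -0.26 and turned to 0.20 under centring. LDHA, the lactate dehydrogenase subunit that favours lactate, was not called (-0.20 ± 0.10 SE, limma adjusted p = 0.105), but with centred arrays its direction turned and it was called higher (0.37, limma adjusted p = 0.0147).

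LDHB, the subunit that favours pyruvate, was higher in SUDHL-1. It lay between 12.08 and 12.33 there with a median of 12.24, and between 11.21 and 11.72 in the other lines with a median of 11.59. The difference was 0.62 ± 0.09 (SE, limma adjusted p = 0.000246), and no array of SUDHL-1 overlapped those of the other lines.

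In upper glycolysis, HK2, the inducible hexokinase, and PFKM were higher in SUDHL-1. HK2 had lowest, median and highest signals of 7.73, 8.05 and 8.79 in SUDHL-1 and 6.71, 7.06 and 7.55 in the other lines, and its difference was 1.18 ± 0.20 (SE, limma adjusted p = 0.000706). PFKM had 6.87, 7.34 and 8.13 against 5.69, 6.42 and 6.78, a difference of 1.35 ± 0.19 (SE, limma adjusted p = 0.000208). HK1 differed by 0.85 and PFKL by -0.76, and PFKP was not called, with a difference of 0.10 and a 95% interval from -0.18 to 0.37.

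Of the regulators, PDK1 was 0.91 higher in SUDHL-1, and PFKFB4, a relative of PFKFB3, differed by -1.21. PFKFB3 differed by -1.04 but lost its call when arrays were centred (-0.39, limma adjusted p = 0.0626). GPI, TPI1, ALDOC and BHLHE40, a circadian and hypoxia-induced repressor, likewise lost their calls under centring, at -0.07, -0.24, -0.79 and -0.16.

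HIF1A itself was lower in SUDHL-1, with lowest, median and highest signals of 8.04, 9.12 and 9.40 against 9.60, 10.11 and 10.39 in the other lines. The groups did not overlap, and the difference was -1.32 ± 0.18 (SE, limma adjusted p = 0.000136). VEGFA, the growth factor for blood vessels and a classical HIF target, lay between 5.55 and 7.33 in SUDHL-1 with a median of 6.06. It stood at 8.75 and 8.53 in DEL, 7.97 and 9.05 in Karpas299, and 7.92 and 8.62 in SUPM2. The difference was -2.10 ± 0.29 (SE, limma adjusted p = 0.000159).

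P4HA2 differed most of the members, by -2.95 ± 0.11 (SE, limma adjusted p = 2.55e-08), with 3.21, 3.49 and 3.69 as the lowest, median and highest SUDHL-1 signals. Since these lie in the lowest 25% of all signals, the fold of 7.73 may understate the difference. EGLN3 differed by -0.83, with DEL far above the rest. Not every hypoxia target was lower: NDRG1, BNIP3L, KDM3A, ADM and P4HA1 were not called in the quantile normalized values, with differences of -0.12, 0.08, 0.36, -0.45 and 0.20, and ANKRD37, a small ankyrin protein induced by HIF, was 0.71 higher and BNIP3 differed by -0.52. The call of ANKRD37 was lost on the deposited values (0.46, limma adjusted p = 0.147), and BNIP3 lost its call on both other scalings. With centred arrays NDRG1 turned to 0.56, and it, BNIP3L (0.62), KDM3A (0.84) and P4HA1 (0.59) were called higher. On the deposited values KDM3A was called higher (0.38) and ADM lower (-0.87).

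Some calls lay near the threshold and changed with 1 SUDHL-1 array left out. Where its call was lost, the difference ran from -0.26 to -0.23 for ENO1 and stayed at -0.53 for BNIP3. For ANKRD37 it ran from 0.50 to 0.73. The call of ENO1 was lost without SP array 2 or 3 or MP array 1 or 2 (limma adjusted p from 0.0575 to 0.0797) and that of BNIP3 without SP array 1 or MP array 3 (0.0573 and 0.0534). The call of ANKRD37 was lost without SP array 1 or 3 or MP array 2 (0.0628 to 0.0979), and ADM was called without SP array 3 (-0.54, limma adjusted p = 0.0338).

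The promoter windows of SLC2A1 and PGK1 are printed as the carrier and the enzyme with the largest differences of their groups in SUDHL-1 (build GRCh38.p14, SLC2A1 on the minus strand at chr1:42958869-42959118 and PGK1 on the plus strand at chrX:78103998-78104247). Capitals again mark ACGTG and GCGTG on either strand.
SLC2A1: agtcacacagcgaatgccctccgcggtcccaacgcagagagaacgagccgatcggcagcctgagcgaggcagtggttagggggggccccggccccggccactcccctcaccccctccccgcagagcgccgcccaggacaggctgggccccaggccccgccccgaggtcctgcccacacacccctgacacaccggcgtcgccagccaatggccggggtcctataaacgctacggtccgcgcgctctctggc
PGK1: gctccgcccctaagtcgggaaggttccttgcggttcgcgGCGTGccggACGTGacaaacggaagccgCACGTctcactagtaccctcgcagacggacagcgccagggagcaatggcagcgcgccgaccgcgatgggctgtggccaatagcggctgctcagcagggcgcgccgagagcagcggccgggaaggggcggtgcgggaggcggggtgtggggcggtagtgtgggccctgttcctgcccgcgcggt
The SLC2A1 window held 0 matches and the PGK1 window 3, between 211 and 179 bases before the start. Both genes were lower in SUDHL-1.

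The choice between related genes was described as the difference of their log2 signals on each array. Such a difference has no absolute meaning, because probe sets have no common scale, and only its change between arrays is read. Of the 11 pairs measured, 6 set all SUDHL-1 arrays apart from all arrays of the other lines: SLC2A1/SLC2A3, P4HA1/P4HA2, PFKL/PFKM, PFKL/PFKP, ENO1/ENO2 and LDHA/LDHB. Of all single genes, 29.1% lay wholly below and 7.51% wholly above the other lines in SUDHL-1 on the same deposited values. No share over other gene pairs is given here, so the count is not read as particular to these pairs. The pair SLC16A1/SLC16A3 was not measured.

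SLC2A1 minus SLC2A3 lay between -4.15 and -3.27 on the SUDHL-1 arrays. It was -0.01 and 0.66 in SP and MP cells of DEL, -0.08 and -0.52 in Karpas299, and -0.52 and -0.72 in SUPM2. The balance of the glucose carriers was thus shifted toward SLC2A3 in SUDHL-1, with a difference of -3.47 from the mean of the other lines and an SD of 0.30 over the 6 SUDHL-1 arrays.

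LDHA minus LDHB lay between -0.74 and -0.54 in SUDHL-1, with an SD of 0.07 over its 6 arrays. It was 0.02 and 0.04 in SP and MP cells of DEL, 0.32 and 0.21 in Karpas299, and 0.15 and 0.10 in SUPM2. The lactate dehydrogenase balance was shifted toward LDHB in SUDHL-1, with a difference of -0.76 from the other lines, and within a line it moved by at most 0.12 between SP and MP cells.

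For phosphofructokinase, the enzyme of the committed step, PFKL minus PFKM lay between -1.72 and -0.51 in SUDHL-1 and between 0.59 and 1.38 in the other lines. PFKL minus PFKP lay between -2.04 and -1.72 in SUDHL-1, between -0.96 and -0.49 in DEL, between -0.28 and -0.12 in Karpas299 and between -1.26 and -1.01 in SUPM2. Both balances were furthest from PFKL in SUDHL-1. PFKM minus PFKP overlapped between SUDHL-1 and the other lines.

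P4HA1 minus P4HA2 gave a separate range for each line. It lay between 4.05 and 4.82 in SUDHL-1, was 2.20 and 2.22 in SP and MP cells of DEL, 1.91 and 1.07 in SUPM2, and -0.92 and -0.36 in Karpas299. The balance therefore spanned 5.09 log2 units from Karpas299 to SUDHL-1. Over the 12 arrays P4HA1 alone ranged from 7.29 to 8.41 and P4HA2 from 3.21 to 8.22.

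BNIP3 minus BNIP3L separated SUPM2 (1.44 and 1.97 in SP and MP cells) and Karpas299 (0.63 and 0.46) from DEL (-1.53 and -0.32), with SUDHL-1 between -0.82 and -0.04. ALDOA minus ALDOC was -0.70 and -0.89 in Karpas299, 0.38 and 1.11 in DEL, and 0.75 and 1.40 in SUPM2. In SUDHL-1 it ran from -1.28 to 1.61. There ALDOA ranged from 9.09 to 9.25 and ALDOC from 7.59 to 10.37.

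HK1 minus HK2 did not separate any line from all others, with values between -1.25 and -0.21 in SUDHL-1 and between -0.93 and 0.12 elsewhere. PFKFB3 minus PFKFB4 was lowest in Karpas299 (2.29 and 2.61). Renormalizing moved the difference of SUDHL-1 from the other lines in that pair from 0.75 to 0.17.

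**Figure D3:**
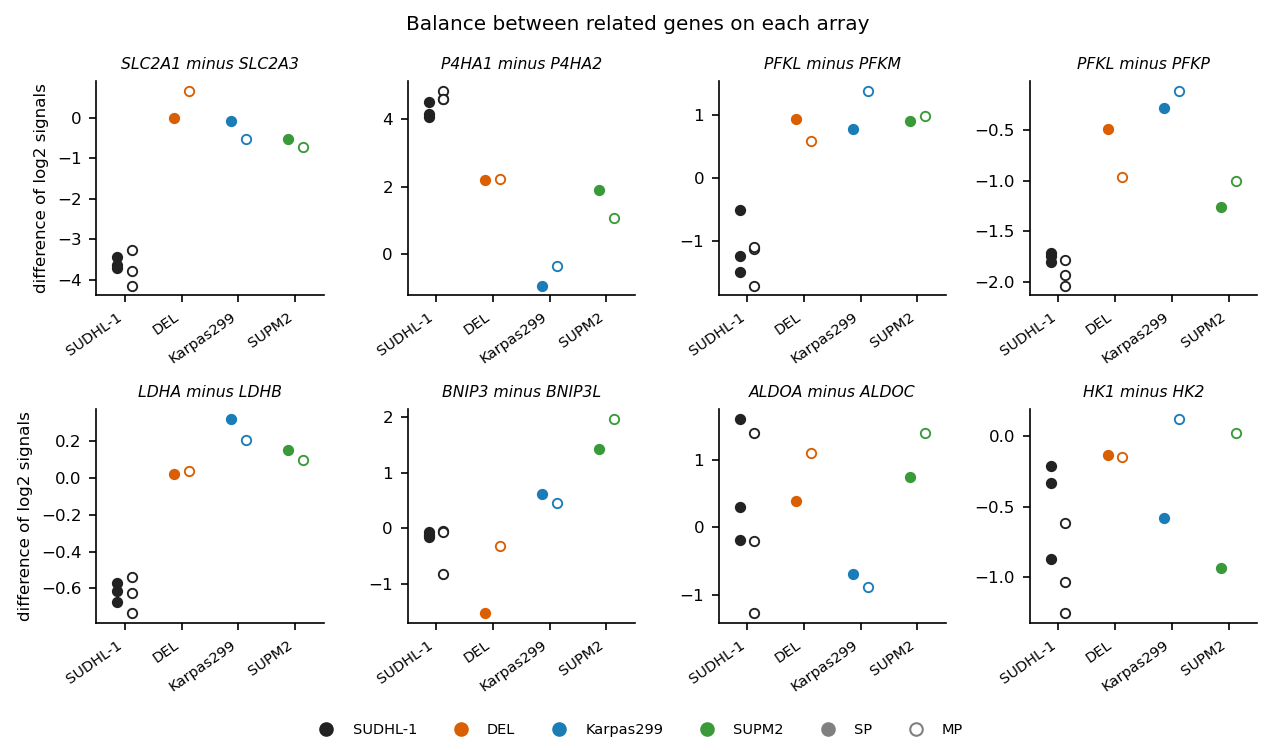
Difference of the log2 signals of 2 related genes (y axis) on each array by line (x axis), filled for SP and open for MP, with a separate y range in each panel. All 6 SUDHL-1 arrays lie below the other 6 for SLC2A1 minus SLC2A3, PFKL minus PFKM, PFKL minus PFKP and LDHA minus LDHB.

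The third comparison, the one the sorting was made for, set SP against MP cells. No member passed the test between SP and MP cells of SUDHL-1, nor over the 4 lines. In SUDHL-1, limma's test passed 0 of 33 members at an adjusted p of 0.05 and 0.0% of all genes. At an unadjusted p of 0.05 it took 1 member and 577 genes (3.13%). The median difference over members was -0.03, beside -0.0002 over all genes, and 15 of 33 were higher in SP cells.

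P4HA1 alone had SP and MP arrays that did not overlap (7.16% of all genes did not). Its SP signals were 7.77, 7.70 and 7.57 and its MP signals 8.27, 8.0 and 8.29, a difference of -0.50 ± 0.15 (SE, limma unadjusted p = 0.0112, adjusted p = 1.0). DEL and Karpas299 also had less P4HA1 in SP than in MP cells (-0.39 and -0.45), and SUPM2 had more (0.60).

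HIF1A stood at 8.81, 9.20 and 8.04 in SP and at 9.23, 9.03 and 9.40 in MP cells of SUDHL-1, a difference of -0.54 ± 0.29 (SE). The groups overlapped, and SP array 3 was the lowest of the 6. Without that array the difference was -0.21. In the other lines the differences were 0.17, 0.27 and 0.29 for DEL, Karpas299 and SUPM2. The interaction of population with SUDHL-1 was called for 0 members and 0.0% of all genes in limma, and at an unadjusted p of 0.05 for 0 members and 661 genes (3.59%).

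The precision in SUDHL-1 differed between members. The half-width of the 95% interval ran from 0.31 for GAPDH to 1.60 for ALDOC, with a median of 0.44. For 29 of 33 members the interval lay within 1 log2 unit of 0, with ALDOC, HIF1A, VEGFA and ANKRD37 as exceptions, and for 12 it lay within 0.5. For SLC2A1 it ran from -0.27 to 0.55, for LDHA from -0.37 to 0.30, for PKM from -0.44 to 0.22 and for HK2 from -0.99 to 0.23. A miss of the threshold therefore does not show equal levels.

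**Figure D4:**
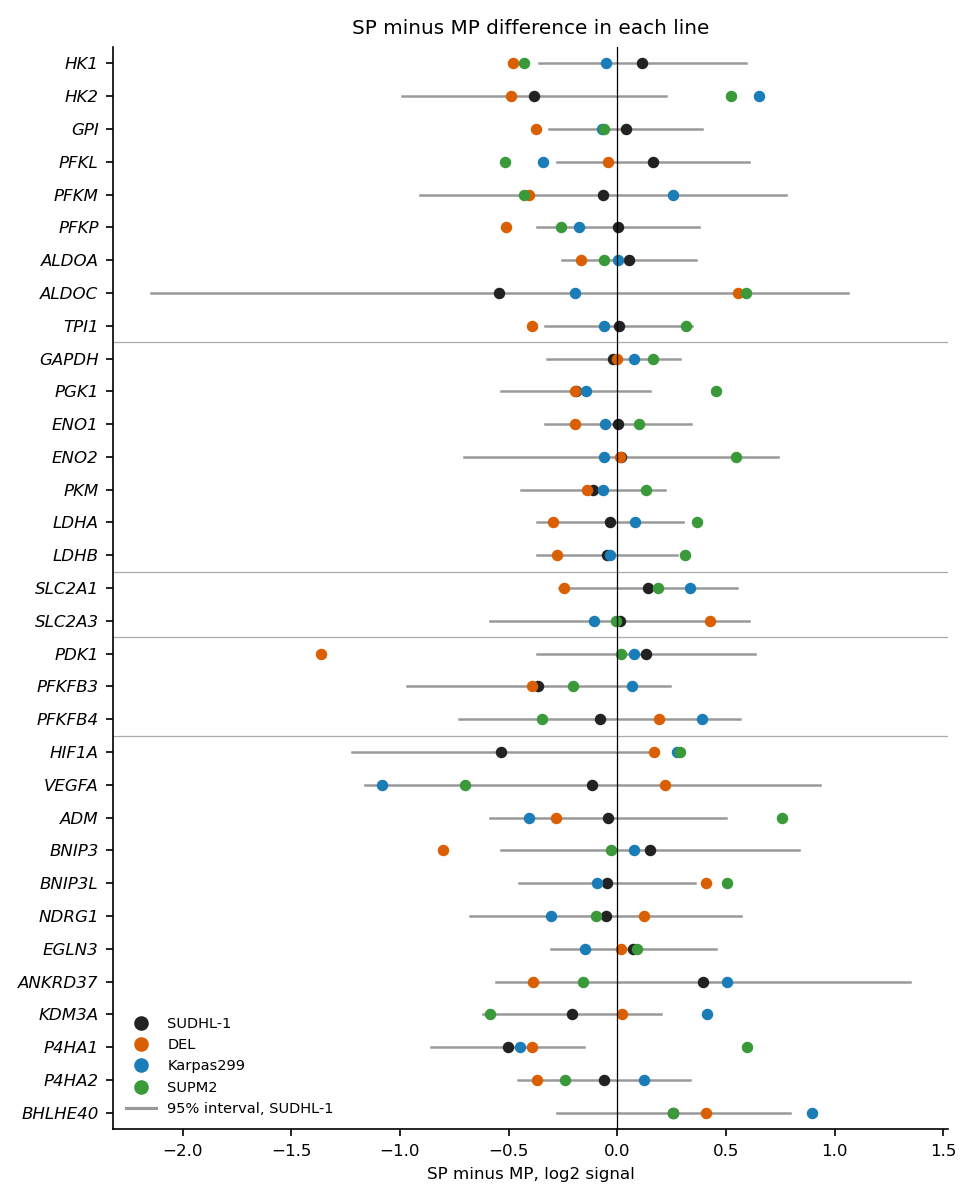
SP minus MP difference in log2 signal (x axis) for each measured member (rows) in the 4 lines, with the 95% interval of the limma fit for SUDHL-1 (grey line). Points of the lines mostly lie on both sides of 0, BHLHE40 is above 0 in all 4 lines, and PDK1 of DEL stands alone at -1.36.

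Over the 4 lines, with 1 SP minus MP difference per line, limma called 0 members and 0.0% of all genes. At an unadjusted p of 0.05 it took 1 member, BHLHE40, and 904 genes (4.91%). Only 1 of 33 members, BHLHE40, had the same sign in 4 of 4 lines, against 13.7% of all genes. It was higher in SP cells, as 8.09% of all genes were. The SUDHL-1 and SUPM2 differences were both 0.26, that of DEL was 0.41 and that of Karpas299 0.90, and the mean was 0.46 ± 0.30 (SD, n = 4 lines, limma unadjusted p = 0.0191, adjusted p = 0.918). No member was lower in SP cells of all 4 lines, against 5.65% of all genes.

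The lines did not share a pattern by role. In SUPM2, 7 of 7 measured genes of lower glycolysis and lactate formation were higher in SP cells, with a median of 0.31, led by ENO2 (8.05 against 7.5) and PGK1 (11.51 against 11.06), while 57.8% of all genes were higher. In DEL, 1 of these 7 was higher, with a median of -0.19, and 1 of 9 genes of upper glycolysis, with a median of -0.39, where 52.7% of all genes were higher. Each of these lines has 1 array per population, so these counts have no replicate check. VEGFA was lower in SP than in MP cells of Karpas299 (7.97 against 9.05) and SUPM2 (7.92 against 8.62), and higher in DEL (8.75 against 8.53).

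Genes of the cell cycle were set beside these values. These lists were chosen with earlier results of these data known, so their directions are described and are not a test. All 25 G2/M genes and all 10 replication histone genes listed were higher in SP cells of SUDHL-1, beside 49.9% of all genes. Their medians were 0.70 and 1.27, and 0 of them passed the adjusted threshold. In DEL, Karpas299 and SUPM2 the medians of the G2/M genes were 0.29, 0.45 and 1.11, and those of the histone genes 1.47, 1.33 and 0.74. Of the 10 histone genes 10, 10 and 6 were higher in SP cells, beside 52.7%, 49.2% and 57.8% of all genes. The G1/S genes did not share this direction: 7 of 17 were higher in SP cells of SUDHL-1 (median -0.04), 1 in DEL (-0.46), 0 in Karpas299 (-0.45) and 9 in SUPM2 (0.12). MP array 3 of SUDHL-1 stood apart in these genes, with a G2/M mean of 8.0 against 8.65 to 9.55 on the other 5 arrays and a histone mean of 6.68 against 7.88 to 9.03. It also had the highest mean over the members, 8.84 against 8.44 to 8.58. Without it the members' median was 0.03 with 21 of 33 higher in SP cells, and 0 members were called. The part of the cell cycle in the members' values was not tested.

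Related genes of the same pathways gave a similar picture between populations, with 0 called between SP and MP cells in SUDHL-1 or over the 4 lines in each of 5 further lists (0.0% of all genes). These held 17 other glycolytic isoforms and carriers, 12 genes of pyruvate entry into mitochondria, 6 of the pentose phosphate pathway, 10 of oxygen sensing and 31 further hypoxia targets. ERRFI1, a feedback inhibitor of growth factor receptors, and PLOD1, a collagen lysyl hydroxylase, had the smallest p among these hypoxia targets in SUDHL-1, with differences of -1.12 ± 0.35 and -0.92 ± 0.28 (SE), with adjusted p of 1.0 in limma.

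Between DEL, Karpas299 and SUPM2, limma called 7 of the 31 further hypoxia targets (7.5% of all genes), 3 of 12 genes of pyruvate entry, 2 of 10 of oxygen sensing, 1 of 6 of the pentose phosphate pathway and 0 of 17 other isoforms. PLIN2, which coats lipid droplets, was 3.79 higher in Karpas299 than in DEL, HILPDA, an inhibitor of lipolysis, 2.55 higher in SUPM2 than in DEL, and PLOD1 2.05 and STC1, a secreted glycoprotein, 2.60 higher in Karpas299 than in the lowest line. EPAS1, which encodes HIF2 alpha, stood at 11.19 and 11.40 in SP and MP cells of DEL, 9.82 and 9.82 in Karpas299, and 8.95 and 9.11 in SUPM2 (difference 2.27, limma adjusted p = 0.00959). ARNT, the partner of both alpha subunits, was 1.29 higher in Karpas299 than in DEL. PDK2, another pyruvate dehydrogenase kinase, was 3.40 higher in Karpas299 than in DEL (limma adjusted p = 0.00631), and PGD, a dehydrogenase of the pentose phosphate pathway, 1.33 higher in DEL than in Karpas299.

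In SUDHL-1 against the other lines on quantile normalized values, 13 of the 31 further hypoxia targets were called lower and 2 higher (25% and 26.0% of all genes), and 7 of 12 genes of pyruvate entry were called higher and 1 lower. CA12, a membrane carbonic anhydrase, lay between 4.74 and 5.72 in SUDHL-1 and between 8.26 and 9.46 in the other lines, a difference of -3.74, and CITED2, a HIF-induced inhibitor of HIF, differed by -2.16. PDHA1 and PDHB, subunits of pyruvate dehydrogenase, were 1.87 and 1.34 higher. Of oxygen sensing 4 were called higher and 4 lower, with EPAS1 at -1.47. Of the pentose phosphate pathway 2 were called higher and 4 lower, among them TKT, a transketolase, at -1.89 and PGLS, a lactonase, at -3.06. Of the 17 other isoforms 5 were called higher and 2 lower, with SLC16A7, a pyruvate and lactate carrier, at -1.55.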

How the data were processed

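The deposited table holds log2 signals per probe set. The authors computed them by RMA (version unstated), as the submitters' processing notes say. RNA was amplified from picogram amounts and hybridised to Affymetrix gene arrays, per the labels' protocols. The sources used here do not say if all 12 arrays entered a single RMA run. All 12 columns were used and 0 were left out.

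Of 33297 probe sets, 19460 had 1 gene symbol in the platform annotation, 12083 carried no symbol and 1754 carried more than 1, and neither class was used to name genes. RefSeq (GRCh38.p14) held 19429 of the 19460 by Entrez identifier. For the 769 genes with several probe sets the one with the highest mean was used, TPI1 among the members.

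Tests used limma 3.58.1 in R 4.3.3 (lmFit, eBayes, two-sided) on 18417 genes, with Benjamini-Hochberg adjustment over all of them and a threshold of 0.05. SUDHL-1 SP minus MP used 6 arrays. The 4-line test used 1 difference per line, with SUDHL-1 arrays averaged first. The interaction with SUDHL-1 and its contrast with the other lines used 12 arrays, and the latter was fitted after quantile normalization. Fits were tested on simulated arrays with the spread of the SUDHL-1 arrays and 200 genes changed. At 1 log2 unit, 21.5% of these were called in SUDHL-1 SP minus MP, 28.5% over the 4 lines and 0.0% in the interaction. At 2 units the shares were 82.5%, 92.5% and 74.5%. Between DEL, Karpas299 and SUPM2, 0.0% were called at 1 and at 2 units and 91.0% at 4. For SUDHL-1 against the other lines it was 78.0% at 1 unit. A gene not called may therefore still differ. Named were all members, up to 4 genes of smallest p per further list and a few markers. The members and lists were chosen with earlier results of these data known.

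Alternatives left out dim genes (lowest 25%), renormalized or centred arrays, averaged probe sets, used a robust trended variance or a replicate block, and left out arrays or lines. Same-numbered SP and MP arrays of SUDHL-1 correlated at -0.00374, -0.0774 and -0.132 in their deviations, so the numbers were not taken as pairs.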

Additional observations from a re-analysis of the deposited data

Results flagged for a closer look

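Among the SP minus MP differences of the 4 lines, 1 line stood apart from the other 3 in 5 of 33 members tested, by Dixon's criterion. Chance meets it in about 1 of 20 sets of 4 alike values. These values are not alike, since that of SUDHL-1 averages 3 SP and 3 MP arrays. The share over all genes is not given here, so the count is not read as an excess. PDK1 was -1.36 in DEL, against 0.02 to 0.13 in the other lines. PGK1 was 0.46 and ENO2 0.55 in SUPM2, where P4HA1 was 0.60 and the other lines -0.50 to -0.39. HIF1A was -0.54 in SUDHL-1, against 0.17 to 0.29 elsewhere. Each line outside SUDHL-1 gave 1 SP and 1 MP array, so its differences have no replicate check. The HIF1A value rests on SP array 3 of SUDHL-1: without it the difference was -0.21 and no longer met the criterion, and without any other array of SUDHL-1 it ran from -0.80 to -0.45. ENO2 met the criterion in 1 of the 6 cases with 1 array of SUDHL-1 left out, P4HA1 in 5, and PGK1 and PDK1 in 6. In SUDHL-1 ENO2 followed the array number. Its SP minus MP differences by number were 0.02, 0.03 and 0.002, and the means of the numbers spanned 0.90. Leaving out 1 array unbalances the numbers, so for ENO2 these cases do not separate number from population.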

How the results depend on the processing

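Between SP and MP cells 0 members were called under every alternative run, in SUDHL-1, over the 4 lines and in the interaction, and 0 with the replicate block in SUDHL-1, where the median over members stayed at -0.03 and 608 genes had an unadjusted p under 0.05, against 577 without it. With the robust trended variance 47 genes and 0 members had an unadjusted p under 0.05 over the 4 lines. Leaving out both arrays numbered 3, chosen after seeing the data, gave a member median of 0.02 in SUDHL-1 and 0 calls. Between DEL, Karpas299 and SUPM2, leaving out 1 array gave 2 to 6 called members and 247 to 1369 called genes. In SUDHL-1 against the other lines, centring moved the member median to -0.159 and reversed ENO1 to 0.20, with no call left for it. It also turned LDHA (-0.20 to 0.37) and NDRG1 (-0.12 to 0.56) and called both higher, and PFKP (0.52), BNIP3L (0.62), KDM3A (0.84) and P4HA1 (0.59) were then called higher too. Renormalizing moved the balance difference to -0.85 for PFKL/PFKP (from -1.15), 0.17 for PFKFB3/PFKFB4 (from 0.75) and 3.15 for P4HA1/P4HA2 (from 3.43). The cause was not tested. Signals in the lowest 25%, as for P4HA2 in SUDHL-1, limit the measured difference.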

Other observations

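ALDOC varied most of the members among the SUDHL-1 arrays, and its order was shared by both populations, a pattern chosen after its values were seen. Its signals on arrays numbered 1, 2 and 3 were 8.95, 7.59 and 9.42 in SP and 9.38, 7.84 and 10.37 in MP cells. The means of the 3 numbers spanned 2.18, a range larger than for 99.9% of all genes. The same range was 1.08 for VEGFA (percentile 97.6), 0.90 for ENO2 (95.6) and 0.74 for NDRG1 (91.9), and 0.06 for ALDOA (5.0). The populations did not share the order of VEGFA, with 6.20, 5.74 and 6.49 in SP and 5.55, 5.91 and 7.33 in MP cells.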
